A study of Mus musculus with 6 samples.

Results

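The retinoic acid genes described here are 9 genes taken by symbol from the single deposited gene table. They are Aldh1a1, Aldh1a2, Aldh1a3, Rdh10, Dhrs3, Crabp1, Crabp2, Rarb and Cyp26b1, and all 9 have a row among the 20645 listed. Expression was measured by unstranded RNA sequencing of mesenchymal stromal cells (MSC) sorted from the lungs of C57BL/6 mice. All mice carried the genotype Tbx4-rtTA/TetO-Cre/mT-mG and were given doxycycline from embryonic day 6.5 to postnatal day 1. In this system regulatory sequence of Tbx4, a lung mesenchyme regulator gene, drives rtTA, which turns on Cre in the presence of doxycycline. The membrane reporter changes from red TdTomato to green GFP where Cre has acted. The mT group holds 3 libraries of red cells and the mG group 3 libraries of green cells, so both groups share the alleles and the drug and differ in reporter colour. Green marks cells in which the driver was active during the doxycycline window, or their descendants, and not current Tbx4 expression. The labels used here do not give the age at collection, whether animals were pooled or what a replicate number stands for. The p-values thus rest on the spread among these libraries, and that spread may be technical.

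Retinoic acid is made from vitamin A in a pair of steps. Retinol dehydrogenases such as Rdh10 oxidise retinol to retinal, which Dhrs3 can reduce back, and the retinaldehyde dehydrogenases Aldh1a1, Aldh1a2 and Aldh1a3 then oxidise retinal to retinoic acid. In the cell, Crabp1 and Crabp2 bind retinoic acid, Cyp26 enzymes such as Cyp26b1 break it down, and nuclear receptors of the Rar family, paired with Rxr, carry its signal to DNA. In the lung, retinoic acid made by mesenchyme is known for its part in the outgrowth of the lung bud and in alveolar septation.

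Retinoic acid receptors bind direct repeats of a short half-site, and Rarb is the textbook example of a receptor gene that carries such a repeat in its own promoter. RefSeq promoters (GRCm38.p6, from 250 bases before to 50 bases after a gene's start) were matched for 6 of the 9 members, with 9 promoters between them, and searched on both strands. The half-sites searched were AGGTCA together with its variants GGGTCA as well as AGTTCA and also GGTTCA, any 2 of them in the same orientation with 5 bases (DR5), 2 bases (DR2) or 1 base (DR1) between. A DR5 was found in 1 of the 9 member promoters, that of Rarb, and in 0.0974% of all 32851 promoters. DR2 and DR1 were found in none of the 9, against 0.268% and 0.222% of all promoters. The 250 bases before the Rarb start (chr14:16575477-16575726, minus strand) are shown because they hold this repeat, printed in capitals at positions -53 to -37 from the start. The 250 bases before the start of Crabp1 (chr9:54764498-54764747, plus strand) are shown because Crabp1 was the member that passed the test. Capitals there mark 5 matches to the GC box, GGGCGG or its reverse complement, which occurs in 35.7% of all promoters, and no half-site was found in that window.
Rarb: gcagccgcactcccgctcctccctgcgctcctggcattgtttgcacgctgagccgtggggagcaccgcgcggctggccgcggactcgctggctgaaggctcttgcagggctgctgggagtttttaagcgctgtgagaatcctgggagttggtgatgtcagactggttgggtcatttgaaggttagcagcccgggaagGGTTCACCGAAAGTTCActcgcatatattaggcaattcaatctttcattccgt
Crabp1: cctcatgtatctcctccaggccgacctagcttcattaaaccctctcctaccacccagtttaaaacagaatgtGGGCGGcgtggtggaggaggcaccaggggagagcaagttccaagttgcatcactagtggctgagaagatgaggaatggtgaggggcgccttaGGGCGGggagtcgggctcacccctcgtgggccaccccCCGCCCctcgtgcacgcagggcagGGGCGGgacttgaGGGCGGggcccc
Such matches describe letters in a window and do not show binding.

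Values listed per library follow the order of replicates 1, 2 and 3. Total counts per library ran from 16853561 to 19429138. Values below are CPM, each library's counts scaled to a common total with TMM factors, and 3 counts, taken as the floor, correspond to 0.14 to 0.18 CPM. All 9 fibroblast and stromal markers were listed, with a summed level of 12181 to 27221 CPM per library. Of 8 leukocyte markers 6 were listed and summed to 8.77 to 18.9 CPM, and of 10 epithelial markers 3 were listed and summed to 1.12 to 11.5 CPM. Endothelial markers summed to 51.2, 0.419 and 12.3 CPM in the mT libraries and to at most 6.81 CPM in mG. One library stood apart: mG replicate 2 had 3609 CPM of 5 cartilage markers, against 9.69 to 76 CPM in the other 5 libraries. Members whose direction rests on it are given with and without it. Smooth muscle markers, all 6 listed, summed to 7140 to 10968 CPM in mT and to 14904, 2007 and 5394 CPM in mG. Tbx4 itself had 188, 20 and 120 counts in the mT libraries and 839, 121 and 564 in mG, with adjusted p = 0.343 in edgeR's quasi-likelihood test and 0.028 with the replicate number as a block. In bulk RNA, fewer cells that express a gene and less of its RNA per cell cannot be told apart.

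Across the pathway, the fitted level of Aldh1a1 in mG was 3.26 times that in mT, those of Rdh10 and Dhrs3 were 0.534 and 0.508 of it, and Crabp1 was close to background in mG. Of the 9 members 8 reached the expression filter and were tested. Crabp1 was lower in mG at an adjusted p under 0.05 in edgeR's quasi-likelihood test, and the other 7 did not pass. Over all 13560 genes tested, 0.914% passed, 0.199% higher and 0.715% lower in mG. Values of the groups did not overlap for 3 tested members (Aldh1a1, Rdh10 and Crabp1) against 20.8% of all genes tested. The median log2 fold change, mG over mT, was 1.27 over the 8 tested members and 0.02 over all genes tested. The sign of the member median turned to -0.98 without mG replicate 2 and to -0.82 with the replicate number as a block, where the median of all genes was -0.01 in both fits. Crabp1 reached the filter through the mT libraries alone, so it could be tested only because it was high there, and nothing is read from these counts.

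**Figure D1:**
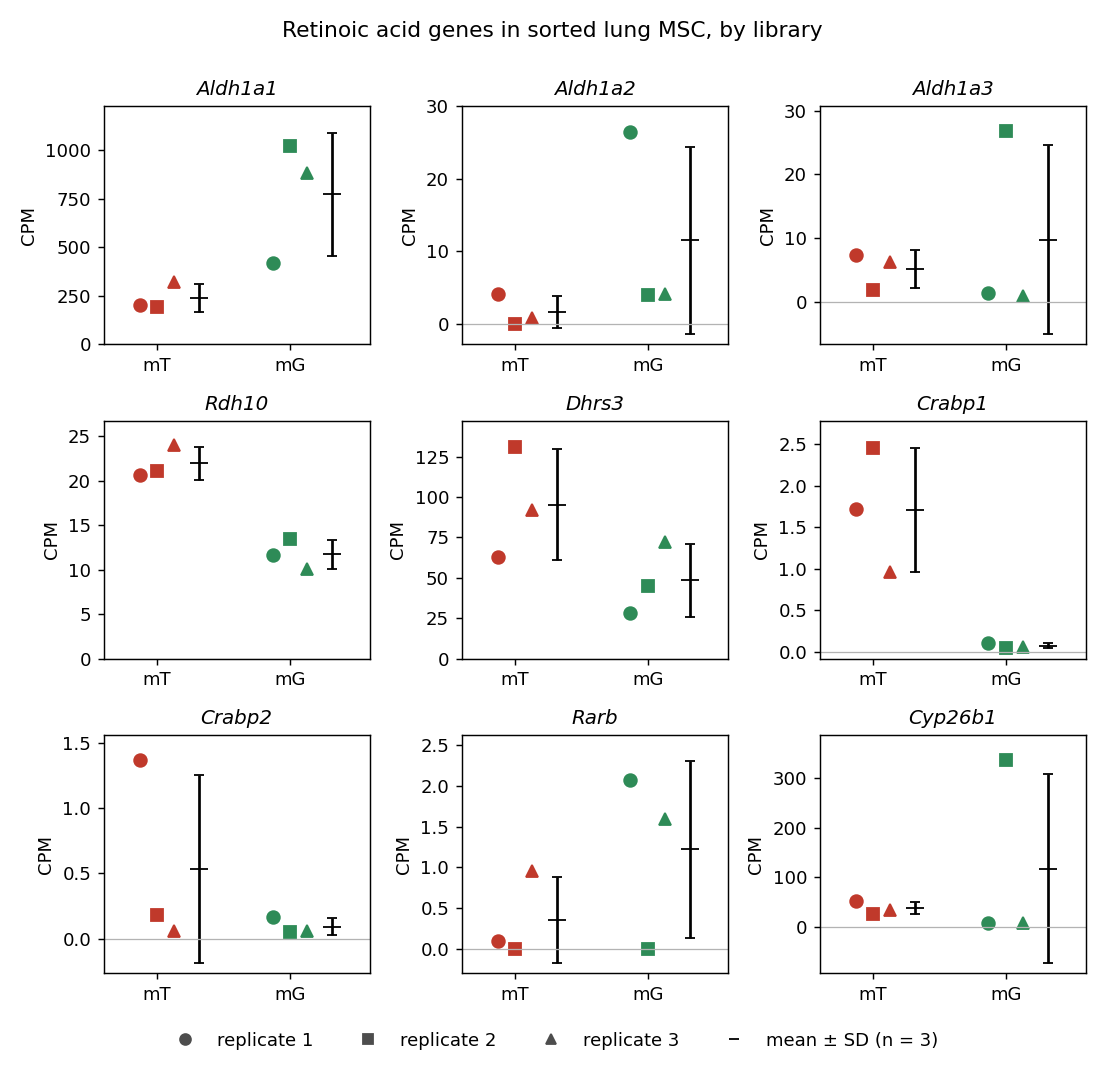
CPM of each of the 9 members (vertical axes, linear, scaled per gene) in the mT and mG groups, with symbols for replicate numbers and bars for mean ± SD (n = 3). Aldh1a1, Rdh10 and Crabp1 separate the groups without overlap, whereas Cyp26b1 and Aldh1a3 have 1 high library, mG replicate 2, at 337 and 26.8 CPM.

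Among the enzymes that make retinoic acid, Aldh1a1 on chromosome 19 was the most abundant, also per kilobase. It had 202, 191 and 318 CPM in the mT libraries and 416, 1020 and 884 CPM in mG. Every mG library was above every mT library, and mG exceeded mT by 2.06, 5.34 and 2.77 times within replicate numbers 1 to 3. Lipofibroblast markers, all 5 listed, summed to 143, 128 and 152 CPM in the mT libraries and 161, 172 and 276 CPM in mG. Among the single markers only Fabp4 did not overlap, at 9.61, 3.77 and 8.26 CPM in mT and 22.8, 31.3 and 178 in mG. Plin2, the most abundant, had a mean of 91.2 CPM in mT and 73.7 in mG. Lpl also had a lower mean in mG, and Pparg and Cd36 had higher ones. Of the 5 lipofibroblast markers 4 were tested and 0 passed, and their part in the Aldh1a1 values was not tested. The fitted log2 fold change of Aldh1a1 was 1.70 ± 0.39 (SE), a 3.26-fold difference, with adjusted p = 0.123 in edgeR's quasi-likelihood test. The authors' deposited table lists a log2 fold change of 1.70 and an adjusted p of 0.00884 for it, and lists 6.05% of its genes under 0.05. DESeq2 gave adjusted p = 0.000849 and the likelihood-ratio test 0.00247, tools that called 5.96% and 5.65% of genes, and adjusted p ran from 0.000849 to 0.388 over 16 alternatives.

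Mouse Aldh1a7 is a close paralog of Aldh1a1 that lies beside it on chromosome 19, so reads could be shared between them, and how such reads were counted is not stated in the labels used here. Both genes had their highest counts in mG replicate 2, and their patterns differed over the other libraries. Aldh1a7 had 434, 1881 and 1490 counts in the mT libraries and 39, 17372 and 592 in mG, where Aldh1a1 had 7634, 21790 and 15012. Whether reads were shared between the genes was not tested. The counts of Aldh1a7 were 10.9%, 58.9% and 28% of those of Aldh1a1 in the mT libraries and 0.511%, 79.7% and 3.94% in mG. Without mG replicate 2 Aldh1a1 had a log2 fold change of 1.44 ± 0.37 with adjusted p = 0.114.

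Aldh1a2 on chromosome 9, the main retinaldehyde dehydrogenase of early embryonic mesoderm, was less abundant, also per kilobase. Its CPM were 4.1, 0 and 0.778 in the mT libraries and 26.4, 4.02 and 4.06 in mG. Each mG library was above the mT library of the same number, but mT replicate 1 lay level with mG replicates 2 and 3, and 67.1% of the summed CPM came from mG replicate 1. Across all genes tested, 20.6% were higher in mG within all 3 replicate numbers. The log2 fold change was 2.80 ± 1.42 with adjusted p = 0.431 in edgeR's quasi-likelihood test. The mesothelium is known to express Aldh1a2. Of 8 mesothelial markers 5 were listed, and Wt1 was among those without a row. They summed to 17, 12.5 and 9.58 CPM in the mT libraries and to 23.5, 6.46 and 80.2 CPM in mG. These sums were highest in mG replicate 3 and Aldh1a2 in mG replicate 1, and the part of mesothelial RNA in the Aldh1a2 values was not tested.

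Aldh1a3 on chromosome 7, the third enzyme of the family, had 7.39, 1.85 and 6.28 CPM in the mT libraries and 1.47, 26.8 and 1 CPM in mG. The groups overlapped, with mG replicate 2 above and the other mG libraries below all mT libraries. The log2 fold change was 0.92 ± 1.25 with all libraries (adjusted p = 0.83) and -2.07 ± 0.67 without mG replicate 2 (adjusted p = 0.171, quasi-likelihood test). Adjusted p ran from 0.0783 to 0.982 over 15 alternatives.

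Per kilobase, Aldh1a1 made up most of the RNA of the 3 retinaldehyde dehydrogenases in every library. Levels per length rest on the gene length used. The lengths listed in the deposited table equalled, for 97% of matched genes, the exon lengths of GENCODE M21 summed over all transcripts plus the number of exons, so exons shared by several transcripts count repeatedly. Merged exon lengths of the same annotation were therefore used beside them, a choice made after seeing the data. Of the CPM per kilobase of merged exon summed over the 3 genes, Aldh1a1 held 92.3%, 99% and 97.4% in the mT libraries and 87.5%, 96.5% and 98.9% in mG. With the listed lengths its lowest share was 80.2%, in mG replicate 1, where Aldh1a2 held 19.4%.

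The enzymes that interconvert retinol and retinal both had lower means in mG. Rdh10 on chromosome 1, which feeds retinal to the dehydrogenases, had the tightest values of the 9 genes. Its CPM were 20.7, 21.1 and 24.1 in the mT libraries and 11.6, 13.4 and 10.1 in mG. Each mG library lay below each mT library, at 0.561, 0.636 and 0.421 of the mT level within replicate numbers 1 to 3. The log2 fold change was -0.90 ± 0.18, a 1.87-fold difference, with adjusted p = 0.0921 in edgeR's quasi-likelihood test. Without mG replicate 2, a fit that called 2.62% of all genes, it was -1.03 ± 0.18 with adjusted p = 0.0489 in the same test. Rdh10 did not pass when any other single library was left out, nor without both replicate 2 libraries (adjusted p = 0.127, quasi-likelihood test). Over 16 alternatives adjusted p ran from 0.00143 to 0.371. With 1 factor of unwanted variation, a fit that called 3.53% of all genes, it was 0.044.

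Dhrs3 on chromosome 4, which returns retinal to retinol and is itself known to be induced by retinoic acid, had 62.6, 131 and 92 CPM in the mT libraries and 28, 44.7 and 72.3 CPM in mG. The groups overlapped, since mG replicate 3 exceeded mT replicate 1, but each mG library was below the mT library of its number, as were 20.2% of all genes tested. The log2 fold change was -0.98 ± 0.40 with adjusted p = 0.338 in edgeR's quasi-likelihood test. Per kilobase of merged exon, Dhrs3 exceeded Rdh10 in every library, by 4.3, 8.82 and 5.43 times in the mT libraries and by 3.43, 4.73 and 10.2 times in mG. These ratios overlapped between the groups. With the listed lengths they ran from 1.5 to 4.42.

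Both genes of retinoic acid binding proteins had few counts. Crabp1 on chromosome 9 had 34, 41 and 16 counts in the mT libraries and 2, 1 and 1 in mG, or 1.72, 2.45 and 0.958 CPM against 0.109, 0.0468 and 0.0589. All mG values lay under the floor of 3 counts. The fitted log2 fold change of Crabp1 was -4.47 ± 0.63, with adjusted p = 0.04 (0.03995 before rounding) in edgeR's quasi-likelihood test. Crabp1 reached the expression filter through the mT libraries alone, where it was high, so its test values are given as a description. The ratio of mT to mG over the summed counts, 91 against 4, was 24.3 with an exact 95% interval of 9.16 to 90.9, which covers counting error only. With the replicate number as a block, adjusted p was 0.066 and 0 members passed, while 0.796% of all genes did.

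The call for Crabp1 also ended without any 1 of the 6 libraries, at adjusted p from 0.0518 to 0.157, while its log2 fold change stayed between -4.86 and -4.12. Over 15 alternatives adjusted p ran from 1.54e-06 to 0.157, and 6 of them passed. Crabp1 marks neural crest and other embryonic mesenchyme, and of 5 glia and nerve markers 4 were listed. These summed to 2.38, 6.28 and 3.89 CPM in the mT libraries and to 1.09, 110 and 9.36 CPM in mG, of which the S100b row, also expressed in cartilage, held most in mG replicate 2. Sox10, which defines neural crest and glia, had no row.

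Crabp2 on chromosome 3, which passes retinoic acid to its receptors, had 27, 3 and 1 counts in the mT libraries and 3, 1 and 1 in mG. Only mT replicate 1 was above the floor, at 1.37 CPM, and the groups overlapped. The gene did not reach the expression filter. With no filter the log2 fold change of Crabp2 was -2.53 at adjusted p = 0.456 in edgeR's quasi-likelihood test. The ratio of mT to mG over 31 and 5 counts was 6.61 with an exact 95% counting interval of 2.55 to 21.8. That interval covers counting error only and not the spread between libraries, and 27 of the 31 counts came from mT replicate 1.

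**Figure D2:**
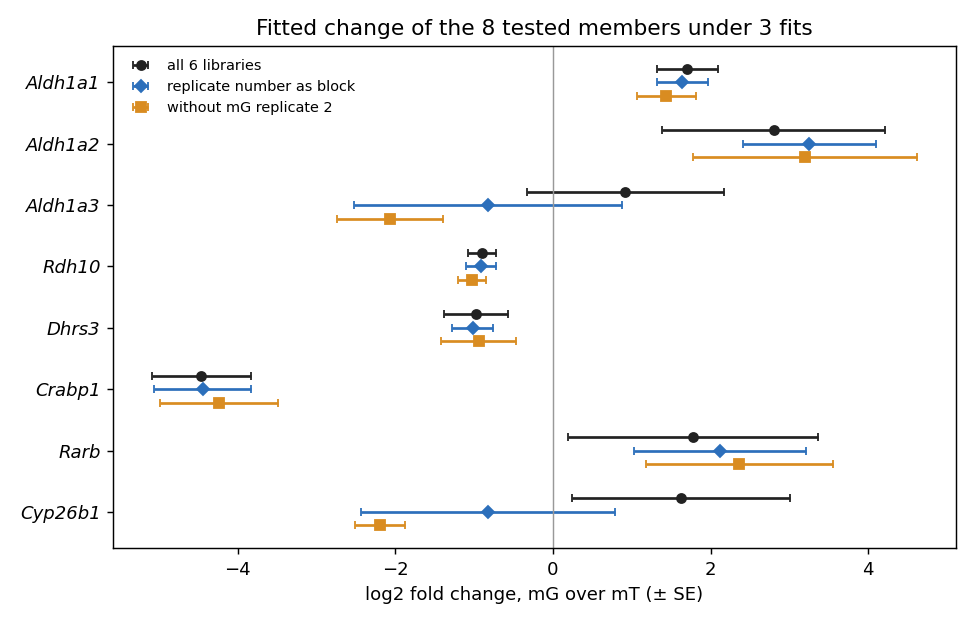
Log2 fold change, mG over mT, with its SE (horizontal axis) for the 8 tested members, with all 6 libraries, with the replicate number as a block, and without mG replicate 2. Cyp26b1 and Aldh1a3 lie on the right of 0 with all libraries, at 1.63 and 0.92, and on the left without mG replicate 2, at -2.19 and -2.07.

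The receptor gene Rarb on chromosome 14, whose promoter repeat is printed above, was the scarcest member per kilobase in mT. It had 2, 0 and 16 counts in the mT libraries and 38, 0 and 27 in mG, or at most 0.958 CPM in mT and 2.07 CPM in mG. Both replicate 2 libraries had no count, below a floor of 0.18 CPM in mT and 0.14 CPM in mG. The groups overlapped, and the log2 fold change was 1.78 ± 1.58 with adjusted p = 0.706 in edgeR's quasi-likelihood test. In GENCODE M21, exons of Rarb overlap those of Top2b on the opposite strand, which had 18938 counts over the 6 libraries, and in unstranded libraries reads of the overlap cannot be assigned to a strand. In mT replicate 2, further genes of the retinoid lists were without counts, among them Aldh1a2, Hoxa4, Hoxa5 and Hoxb5.

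Cyp26b1 on chromosome 6, the member that breaks retinoic acid down, varied widely within mG. Its CPM were 52, 27.2 and 35.4 in the mT libraries and 8.01, 337 and 8.83 in mG. The mG libraries of numbers 1 and 3 lay below all mT libraries and mG replicate 2 above them all, holding 71.9% of the summed CPM. No tested member had over 75% of its summed CPM in 1 library, as 0.376% of all tested genes did. The log2 fold change was 1.63 ± 1.39 with all libraries (adjusted p = 0.688) and -2.19 ± 0.31, a 4.58-fold lower level in mG, without mG replicate 2 (adjusted p = 0.0347, quasi-likelihood test). That fit called 2.62% of all genes, 1.66% lower in mG, and adjusted p for Cyp26b1 ran from 0.0347 to 0.967 over 15 alternatives. With the replicate number as a block the log2 fold change was -0.82 ± 1.62 with adjusted p = 0.865.

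The library that was high in Cyp26b1 and Aldh1a3 was also high in Aldh1a7 and in cartilage markers. Aldh1a1 too was highest there, at 1020 CPM, against 884 CPM in mG replicate 3. The cartilage regulator Sox9 had 149, 3097 and 139 counts in mG replicates 1 to 3 and 4 to 43 in mT. The cartilage collagen Col2a1 had 13, 58011 and 147 counts in mG and 18 to 566 in mT, and the matrix protein gene Comp had 6, 15863 and 23 in mG and 60 to 1208 in mT. Cyp26b1 is known to be expressed in developing cartilage, and whether the cartilage transcripts and Cyp26b1 come from the same cells of mG replicate 2 was not tested.

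**Figure D3:**
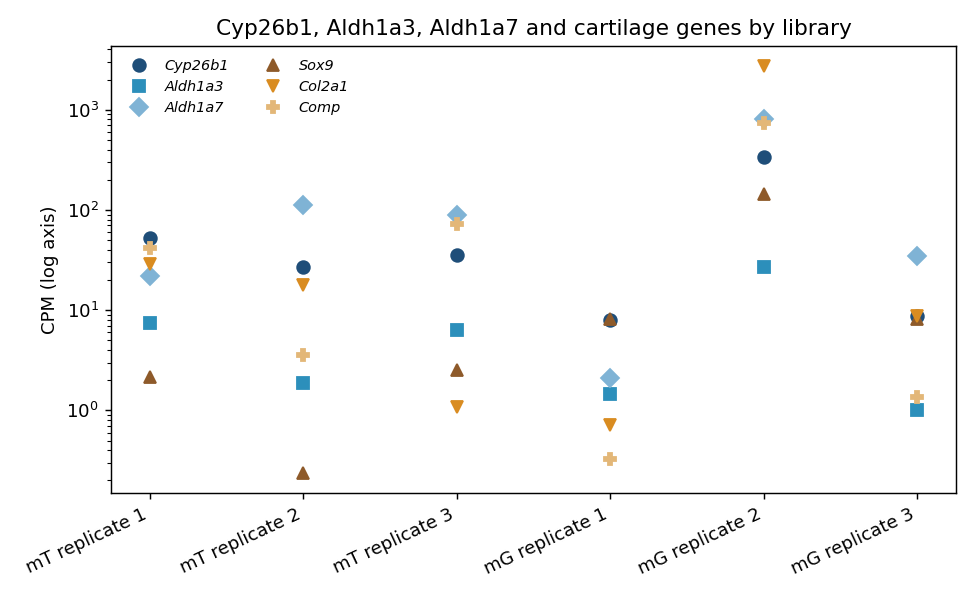
CPM on a log axis of Cyp26b1, Aldh1a3 and Aldh1a7 and of the cartilage genes Sox9, Col2a1 and Comp in each of the 6 libraries. All 6 genes have their highest value in mG replicate 2, where Cyp26b1 reached 337 CPM and Aldh1a3 26.8 CPM.

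Ordered by CPM per kilobase of merged exon, the mT group read Aldh1a1 (48 ± 14.3, SD, n = 3), Dhrs3 (32.5 ± 11.7), Cyp26b1 (7.14 ± 2.35), Rdh10 (5.28 ± 0.442), Crabp1 (2.13 ± 0.931), Aldh1a3, Aldh1a2, Crabp2 and Rarb. Neighbours in this order overlapped within 1 SD except Dhrs3 and Cyp26b1, and Rdh10 and Crabp1. In mG the order was Aldh1a1 (157 ± 64.2), Cyp26b1 (22 ± 35.4), Dhrs3 (16.5 ± 7.64), Aldh1a2 (5.08 ± 5.7), Rdh10 (2.82 ± 0.398), Aldh1a3, Rarb, Crabp1 and Crabp2, and Aldh1a1 alone stood clear of its neighbour by more than 1 SD. The place of Cyp26b1 there rests on mG replicate 2, with 1.5, 62.9 and 1.65 CPM per kilobase in the mG libraries. Without that library the mG order was Aldh1a1, Dhrs3, Aldh1a2, Rdh10, Cyp26b1, Rarb, Aldh1a3, Crabp1 and Crabp2. With the listed lengths Cyp26b1 in mT came after Rdh10 and Crabp1, since its listed length is 3.45 times its merged one. The level of Aldh1a1 over that of Cyp26b1, both per kilobase of merged exon, was 4.22, 7.61 and 9.74 in the mT libraries and 56.3, 3.28 and 109 in mG.

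Genes whose pattern over the 6 libraries was most like a member's were found by Pearson correlation of log2(CPM + 1). For Aldh1a1 they were Arrdc3 and Itih2 (r = 0.992 and 0.99), for Crabp1 Zdhhc14 and Grik3 (0.996 and 0.994), and for Rdh10 Pigm and Hoxc13 (0.997 and 0.996). For Cyp26b1 they were H2-T24 and Polg2 (0.992 and 0.989). With 6 points that share the 2 groups, 144 to 361 of the tested genes had r above 0.9 with any given member, so these are descriptions only.

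Of 62 further genes of vitamin A handling and retinoic acid response, 49 were listed and 42 tested. In edgeR's quasi-likelihood test 1 of the 42 was higher in mG and 0 lower, against 0.199% and 0.715% of all genes tested. An unadjusted p under 0.05 in that test was seen for 12 of the 42, against 14.6% of all genes. Of these 12, 9 were in the list of genes known to respond to retinoic acid. Rdh12 and Hoxa4, both among the 12, reached the filter through the mG libraries alone. The median log2 fold change of the 42 was 0.08, against 0.02 over all genes tested. With the replicate number as a block none of the 42 passed.

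Genes of uptake and storage were in part not listed, among them Stra6, the receptor that takes up retinol, and Lrat, which esterifies it for storage. Of 6 tested, 0 passed. Scarb1, a lipoprotein receptor that also takes up carotenoids, had 26.2 ± 1.92 CPM in the mT group and 38.1 ± 2.62 in mG (SD, n = 3, adjusted p = 0.133, quasi-likelihood test). Dgat1, an acyltransferase that can esterify retinol, had 15.2 ± 1.68 and 18.9 ± 2.59 CPM (adjusted p = 0.507).

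Of 11 further retinol and retinal oxidoreductases tested, 0 passed. Rdh12 had 3, 1 and 8 counts in the mT libraries and 17, 47 and 15 in mG, with adjusted p = 0.222 in edgeR's quasi-likelihood test. It reached the filter through the mG libraries alone, so it could be tested only because it was high there. Dhrs4, a retinal reductase, had 22.8 ± 2.88 CPM in the mT group and 29.5 ± 6.07 in mG with adjusted p = 0.455 in edgeR's quasi-likelihood test. Fabp5, which binds retinoic acid beside fatty acids, had 163 ± 10.6 and 188 ± 11.8 CPM with adjusted p = 0.535 in the same test. Cyp26a1 and Cyp26c1, the other genes of the Cyp26 family, had no row.

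Of 4 further receptor genes tested, 0 passed, and their fitted changes lay near 0. Rarg had 100 ± 15.3 CPM in the mT group and 106 ± 22.7 in mG (adjusted p = 0.916, quasi-likelihood test), and Rxrb had 33.5 ± 5.34 and 35.1 ± 3.99 CPM (adjusted p = 0.917). The log2 fold changes of Rarg, Rxrb, Rara and Rxra were 0.09 ± 0.21, 0.07 ± 0.17, -0.07 ± 0.19 and 0.00 ± 0.36 (SE). Of 8 coregulators 0 passed. The corepressor gene Ncor1 had 176 ± 15.8 and 142 ± 4.8 CPM (adjusted p = 0.334) and the coactivator gene Ncoa2 57.9 ± 6.85 and 50.5 ± 14.8 CPM (adjusted p = 0.791).

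Among 12 tested genes known to respond to retinoic acid, 11 had a fitted change above 0, as did 53.1% of all genes tested, and 1 passed in edgeR's quasi-likelihood test. With the block, and without mG replicate 2, 10 of the 12 were above 0. Meis1, a TALE homeobox gene, rose 2.3-fold in mG, from a mean of 14.2 ± 2.78 CPM to one of 32.7 ± 2.07 CPM. Its adjusted p was 0.0481 in that test and 0.0742 when replicate numbers were blocked. The call for Meis1 also ended with upper-quartile factors (0.0582) and without any 1 of the 6 libraries (0.0506 to 0.21), while its log2 fold change stayed between 1.09 and 1.37 over 16 alternatives, of which 7 passed. Its relative Meis2 lay the other way, at 64.6 ± 21.2 CPM in the mT group and 17.7 ± 4.06 in mG with adjusted p = 0.0556. Nr2f2, an orphan nuclear receptor gene, had 59.4 ± 5.64 and 120 ± 26.3 CPM with adjusted p = 0.0794. The Hox gene Hoxa5 had 205, 0 and 48 counts in the mT libraries and 1115, 1269 and 504 in mG, with adjusted p = 0.266. Tgm2, which encodes transglutaminase 2, had 5121, 1108 and 2539 counts in mT and 27932, 2397 and 12237 in mG, with adjusted p = 0.327. The median log2 fold change of the 12 was 1.11. Groups did not overlap for 8 of them, among which Meis2 was lower in mG, against 20.8% of all genes in either direction. Hoxa4, counted among the 12, the 11 and the 8, reached the filter through the mG libraries alone. It could be tested only because it was high there, and nothing is read from these counts.

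**Figure D4:**
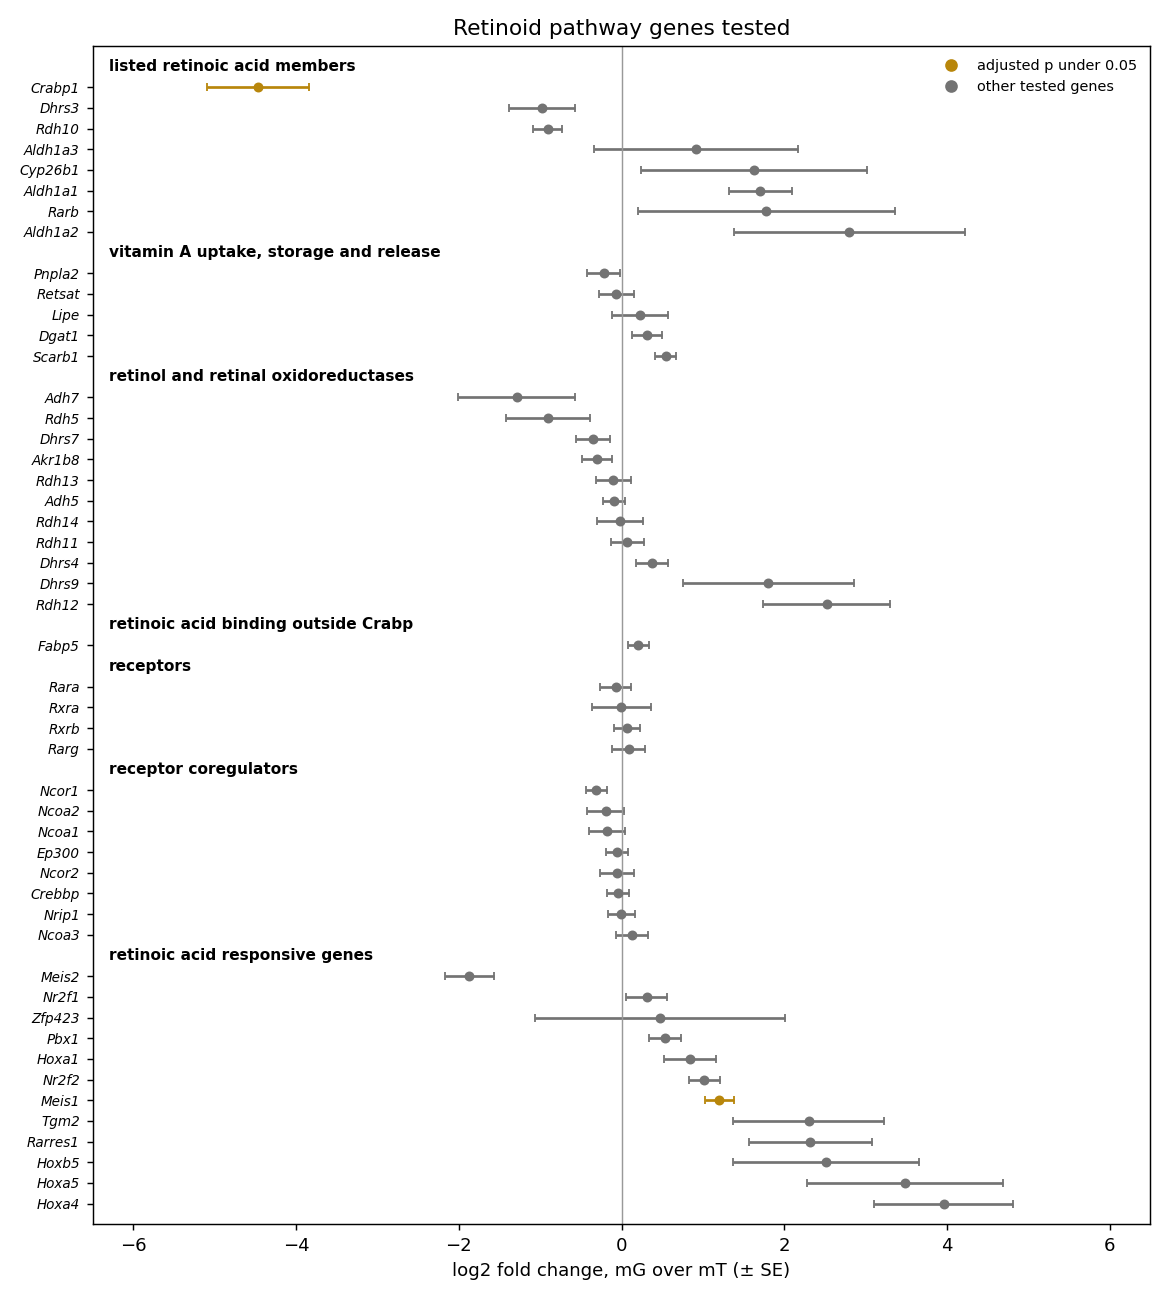
Log2 fold change, mG over mT, with its SE (horizontal axis) of the 8 tested members and 41 of the 42 other retinoid pathway genes tested, by list. Crabp1, at -4.47, and Meis1, at 1.20, are the genes with an adjusted p under 0.05 in the quasi-likelihood test without a block. Crabp1 reached the expression filter through the mT libraries alone. The receptors and coregulators lie near 0.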

How the data were processed

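Per the labels' protocols, lung cells were dissociated with enzymes, sorted by flow cytometry and made into unstranded libraries. The tools STAR, edgeR 4.0, Trimmomatic 0.38, cutadapt 5.0 and FastQC 0.11.9 are credited to the submitters' processing notes. For the build, the annotation and the counter, a name is not given in the sources used here. The authors deposited whole-number counts per gene for 6 libraries, which were used for all tests. The authors' RPKM and TMM-scaled signal columns, their likelihood-ratio score and −log10 p-value were not used, and the authors' log2 fold changes and adjusted p-values are quoted where named. Rows without a gene name (0.013% to 0.0352% of counts) were left out.

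Counts were tested in R 4.3.3 by the quasi-likelihood test of edgeR 4.0.16 (glmQLFTest after glmQLFit, TMM factors of 0.926 to 1.13, filterByExpr with a minimum count of 10) and adjusted by Benjamini-Hochberg over 13560 genes at 0.05. Standard errors were taken as the absolute fitted log2 change over the root of its F statistic. Scripts were tested on simulated data. Same-numbered mT and mG libraries deviated together from their group means, with correlations of 0.288, 0.18 and 0.349 against at most -0.0254 for other pairings. Deviations from a group mean cancel within the group, so positive values for same numbers tend to force negative ones for other pairings. With so few libraries per group the same-number match can also be the closest by chance. The replicate numbers may thus pair the samples, from the data and not the labels. The main test was fitted on the group alone, without this pairing, and the replicate number as a block was an alternative. A blocked value is printed where it changes a call. Alternatives were other normalizations, filters, tools (DESeq2 1.42.0, limma 3.58.1), 1 factor of unwanted variation, the block and omitted libraries.

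The members and lists were chosen with earlier results of these data known. All members are named, and of each further list the called genes and the 2 others with the smallest p-values. Hoxa5 and Tgm2, and the genes without counts or rows, were chosen after their values were seen. The values of 1 pathway gene, counted in its list, are not reported here.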

Additional observations from a re-analysis of the deposited data

How the results depend on the processing

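The number of genes called, 124 (27 higher and 97 lower in mG), was 960 under DESeq2 (475 and 485), 766 under the likelihood-ratio test (360 and 406), 478 with 1 factor of unwanted variation (151 and 327) and 46 without both replicate 2 libraries (10 and 36). With limma-voom 17 were higher. Leaving out 1 library gave 20 to 362 genes, 0 to 132 higher and 20 to 230 lower, with 28, 25 and 20 without mT replicates 1 to 3 and 71, 362 and 32 without mG replicates 1 to 3.

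The 1 member called, lower in mG, became 0 with a CPM filter, under which Crabp1 was not tested, and 0 with limma-voom, the replicate block, and both replicate 2 libraries left out. It became 3 (1 higher, 2 lower) under both DESeq2 and the likelihood-ratio test, and 2, both lower, with 1 factor of unwanted variation. Leaving out 1 library gave 0 to 2 members, all lower, the 2 being Rdh10 and Cyp26b1 without mG replicate 2. The 1 other pathway gene called, higher in mG, became 0 with upper-quartile factors, the replicate block and both replicate 2 libraries left out. It became 2 with no filter (1 of them lower) and 6 under DESeq2 and under the likelihood-ratio test (5 higher, 1 lower). It became 3 with 1 factor of unwanted variation (2 higher, 1 lower). Leaving out 1 library gave 0 to 2 of these genes, with 0 to 1 in each direction. Members with a p-value were 7 under DESeq2 and 8 under the likelihood-ratio test, and other pathway genes 49 and 42. Of all genes, DESeq2 called 5.96%, the likelihood-ratio test 5.65% and 1 factor of unwanted variation 3.53%. The fit without mG replicate 2 called 2.62%.

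The log2 fold change of Aldh1a3 reversed to -0.27 with limma-voom, -0.82 with the replicate block, -0.43 with 1 factor of unwanted variation and -2.47 without both replicate 2 libraries. That of Cyp26b1 reversed to -0.26, -0.82, -0.28 and -2.39 in the same fits. Leaving out 1 library gave -2.07 to 1.44 for Aldh1a3 and -2.19 to 2.17 for Cyp26b1. Among these single omissions only that of mG replicate 2 gave a negative value for either gene. Why that library differed was not tested. DESeq2 gave no p-value for these genes. The other 7 members kept their direction wherever they could be fitted. Among the members and the other pathway genes, the replicate block changed no call other than those of Crabp1 and Meis1. Crabp1, Crabp2 and Rarb rest on so few counts that depth limits them.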
